A study of Mus musculus with 2 samples.

Results

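Monocytes and conventional dendritic cells were followed as 104 cells of a mouse liver single-cell library. A cell was a member when at most 20% of its UMIs (unique molecular identifiers, each standing for 1 captured RNA molecule) were mitochondrial and when it held at least 4 UMIs, summed, of Ccr2, Mgl2, Cd209a, Xcr1, Clec9a, Flt3, Itgax, Chil3 and F13a1. Its summed share of the Kupffer cell genes Clec4f, Vsig4, Timd4, Cd5l and Marco had to stay under 0.3% of UMIs. Siglech, Retnlg, Cd79a and the sum of Cd3d, Cd3e and Cd3g, which mark plasmacytoid dendritic cells, neutrophils, B cells and T cells, had to stay at 1 UMI or less each. The members were 104 of 6765 cells kept in WT replicate 1, which is 1.54% (1.26 to 1.86), and 104 of 9703 cells in the series. They were set against 2510 Kupffer cells of the same library, in which the 5 Kupffer genes made up at least 0.6% of UMIs.

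The study profiled livers of 8-week-old C57BL/6 mice that were healthy wild type (WT), dissociated by enzymes and cleaned on 25% and 50% Percoll, with the 10x Chromium 3' kit of version 2. Its 2 samples form 1 group, WT replicate 1 and WT replicate 2, and the labels do not say whether they are separate animals. WT replicate 2 held 2341 cells and no member, so every member comes from 1 library of 7362 cells and 40645060 UMIs. With 1 library there is no replicate error and no test. Intervals in brackets are exact 95% intervals (Poisson for levels, Clopper-Pearson for shares, conditional binomial for ratios) and cover counting error only.

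Members were deeper than most cells of the library. They held 1017781 UMIs in all and 871, 9084.5 and 24003 UMIs per cell (lowest, median and highest), against a median of 4068.5 in Kupffer cells and 4719 over all kept cells. Levels are therefore given as CPM, UMIs of a gene per 1000000 UMIs summed over the cells of a group, and shares of cells with a UMI are also given after thinning each cell to 1000 UMIs. No member shared its barcode with the other library, where 5 barcodes occurred in both. Scrublet, a doublet caller, called 69 of 6765 kept cells and 0 of the 104 members, and 13 members lay in the highest 5% of its scores. Of these 13, 6 were among the 23 members led by Xcr1 and Clec9a, a range described below. A further 39 kept cells reached 4 UMIs of the 9 genes and were left out, 9 of them with a Kupffer share of at least 0.6% and 3 with a share from 0.3% to 0.6%.

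Monocytes arise in the bone marrow, enter tissue through the chemokine receptor Ccr2 and can become macrophages or dendritic cells. Conventional dendritic cells take up antigen and show it to T cells on major histocompatibility complex (MHC) molecules. Type 1 cells carry Xcr1 and Clec9a, depend on the transcription factors Irf8 and Batf3 and are known for presenting antigen from dead cells to CD8 T cells, and type 2 cells are known for priming CD4 T cells. Kupffer cells are the resident macrophages of the liver sinusoid, which clear particles, old red cells and iron from blood.

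The rule genes chose the cells and are described only. The 9-gene sum was 4 UMIs in the lowest member, 15 in the median member and 62 in the highest. Ccr2 (chr9:124101950-124113557, GRCm38, plus strand) had UMIs in 63 of 104 members at 386 CPM (349 to 426). Mgl2, a galactose-binding lectin (chr11:70130329-70137550, plus strand), had UMIs in 45, Itgax in 45, F13a1, the A chain of coagulation factor XIII (chr13:36867178-37050244, minus strand), in 37, Clec9a (chr6:129408862-129424763, plus strand) in 36 and Flt3 in 35. The lectin gene Cd209a (chr8:3743397-3748984, minus strand) had UMIs in 25 members. Xcr1 (chr9:123852315-123862029, minus strand) and the chitinase-like gene Chil3 (chr3:106147554-106167564, minus strand) had UMIs in 15 members each. These genes divided the members: all 15 members with Xcr1 had Clec9a and Flt3, none of them had Cd209a, Chil3 or F13a1, and 1 had Mgl2. No member had both Cd209a and Chil3, while 25 members had Mgl2 with F13a1.

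Droplets also catch free RNA, so the same shares were read in other cells. In Kupffer cells and sinusoidal endothelium they were low for Ccr2 but not for Clec9a. Ccr2 was seen in 60.6% of members (thinned 28.2%, median depth 9084.5), in 1.24% of Kupffer cells (thinned 0.298%, median depth 4068.5) and in 0.238% of 2941 sinusoidal endothelial cells (thinned 0.0511%, median depth 5070). Ccr2 was not low in all other cells. It was seen in 36.9% of T cells (thinned 16.5%) and in 31.25% of 32 plasmacytoid dendritic cells (thinned 8.62%, median depth 6628). Clec9a was seen in 34.6% of members (thinned 9.90%), but also in 13.5% of sinusoidal endothelial cells (thinned 3.35%) and 10.3% of Kupffer cells (thinned 2.31%), with 1.19% in 168 T cells (thinned 0.335%, median depth 3427.5). Its level was 143 CPM (121 to 169) in members, 24.4 CPM (21.7 to 27.4) in Kupffer cells and 28.96 CPM (26.4 to 31.7) in sinusoidal endothelium. Plasmacytoid dendritic cells had Clec9a in 56.25% of cells (thinned 13.1%), above the share of members.

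Just inside the limit of 4 UMIs lay 11 members, and just outside it, at 3 UMIs, lay 23 cells. Lyz2, a lysozyme of myeloid cells, stood at 9449 CPM inside and 1710.2 CPM outside, and the MHC class II chain H2-Aa at 3252 and 1169 CPM. Most of the Lyz2 UMIs inside came from 1 deep cell, of 15435 UMIs, so the Lyz2 difference rested largely on that cell. The levels inside were not tested without it. Clec9a was lower inside, at 170.3 against 274.6 CPM, and 10 markers of sinusoidal endothelium summed to 6827 CPM inside and 14074 CPM outside. Cst3, cystatin C, was also lower inside, at 1073 against 1718 CPM.

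Outside the rule, the complement genes C1qa, C1qb and C1qc, which tissue macrophages make, divided the members. The share of these genes was at least 0.3% of UMIs in 35 members (33.7%), called C1q-rich here, with 0.305%, 1.47% and 2.42% as lowest, median and highest. It was 0 in 44 members, at most 0.233% in the other members, and had a median of 1.11% in Kupffer cells. Only 5 members lay within 2-fold of the limit. The remaining 69 members were divided by whichever gene pair had most UMIs: 23 were led by Xcr1 and Clec9a, 20 by Cd209a and Mgl2, 13 by Chil3 and F13a1, and 13 had no leading pair. The leading pair exceeded the next by a median of 10, 11.5 and 5 UMIs in the 3 led groups, and 1 cell led by 1 UMI. These groups are ranges of expression, not cell types.

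**Figure D1:**
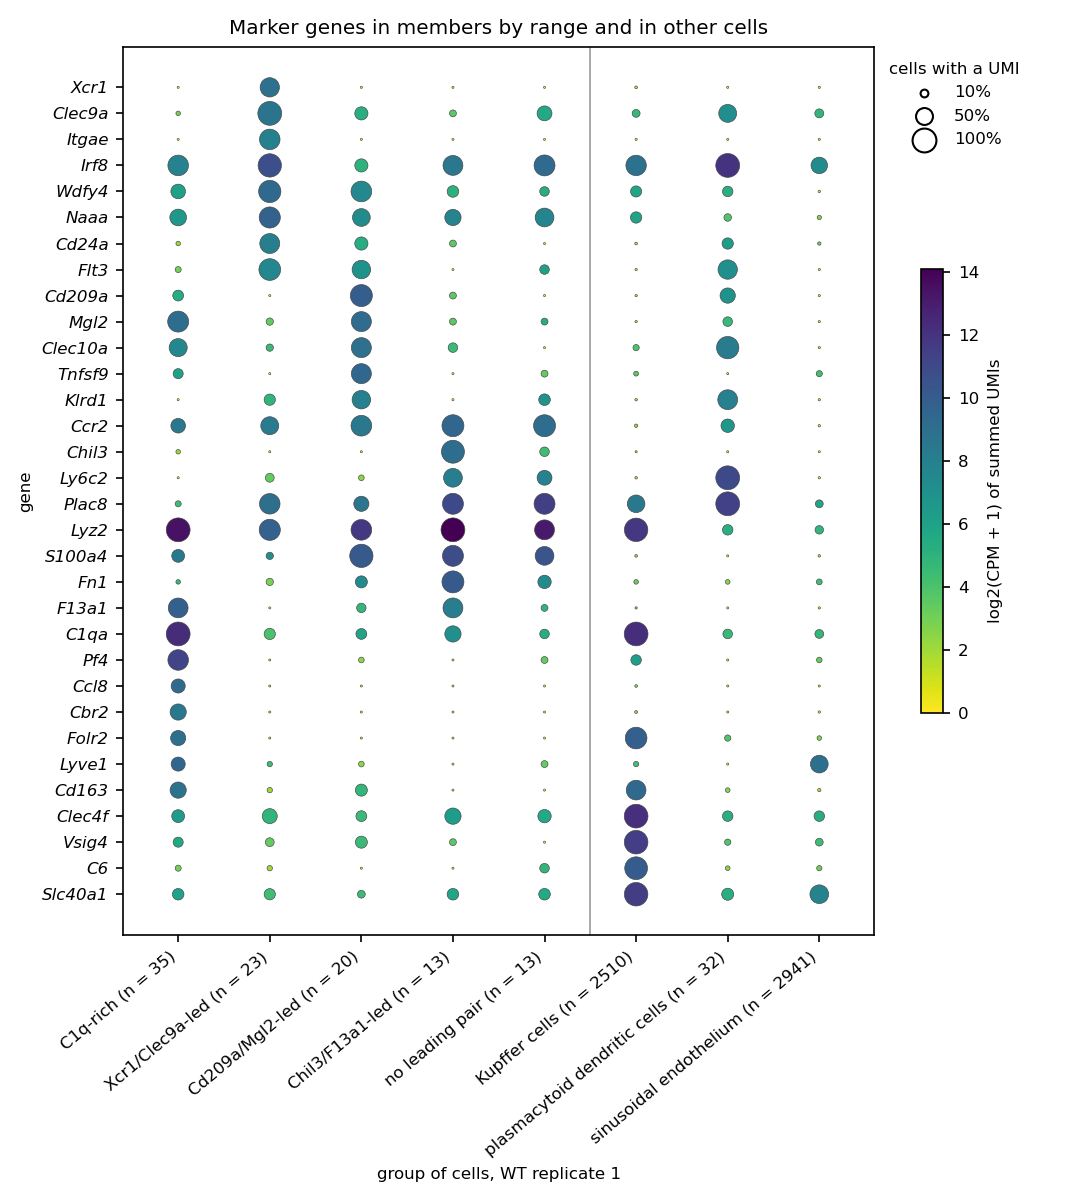
Marker genes (rows) in the 5 ranges of members and in 3 other groups of cells of WT replicate 1 (columns, n in cells). Colour is log2(CPM + 1) of summed UMIs and dot area the share of cells with a UMI. Among members, Itgae stands only in the Xcr1/Clec9a-led column and Ccl8, Cbr2 and Folr2 only in the C1q-rich column. C6 and Slc40a1 are high in Kupffer cells and low in all 5 ranges. Clec4f and Vsig4 are too, but as rule genes their difference was set by the choice of cells.

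The name monocytes and conventional dendritic cells is uncertain for the C1q-rich members. Ly6c2, the Ly6C antigen of classical monocytes, had 0 UMIs in these 35 cells, and Zbtb46, a transcription factor of conventional dendritic cells, stood at 3.46 CPM (0.0877 to 19.3). Csf1r, which monocytes and macrophages share, stood at 1101 CPM (984 to 1229), against 591 CPM (443 to 773) in Chil3/F13a1-led and 25.4 CPM (10.97 to 50.1) in Xcr1/Clec9a-led members. Adgre1 stood at 412 CPM (341 to 493), 156 CPM (85.4 to 262) and 3.18 CPM (0.0804 to 17.7) in the same 3 ranges. Of the rule genes, 27 of the C1q-rich members had Mgl2 and 24 had F13a1. The 25 Kupffer cell genes outside the rule summed to 6376 CPM in them, 886.0 to 2097 CPM in the other ranges and 25107 CPM in Kupffer cells. Of these genes, C6 was 6.93 CPM (0.839 to 25.02) against 1047 CPM (1029 to 1066) in Kupffer cells and the iron exporter Slc40a1 62.3 CPM (36.9 to 98.5) against 3112 CPM (3081 to 3144), while Folr2 was 506 CPM (427 to 595) against 953 CPM (935 to 970.2). They are described below as C1q-rich members, with no cell type name.

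Against Kupffer cells, Retnla, Itgae, H2-Oa, Ltb4r1 and Jaml had the 5 highest ratios among genes seen in at least 10% of members, rule genes left out. Of 10193 genes with at least 50 UMIs over both groups, 1018 (9.99%) were at least 2-fold higher in members and 1995 (19.6%) at least 2-fold lower, with a median log2 ratio of -0.24 over all of them. Both groups were chosen by expression in the same cells, so these counts are a description. S100a4, a calcium-binding protein of motile cells, stood at 682 CPM (632 to 735) against 2.77 CPM (1.91 to 3.89), 246-fold (174 to 360.4) higher, and had UMIs in 49 of 104 members. The oxysterol receptor Gpr183, which guides dendritic cells to their place in lymphoid tissue, was 215-fold (89.00 to 679) higher, and the leukotriene receptor Ltb4r1 328-fold (86.6 to 2772). Napsa, an aspartic protease, was 193-fold (113 to 359) higher and the transcription factor Runx3 192-fold (102 to 408), with UMIs in 54 and 58 members. Jaml, Tspan33, Gpr141, Gpr171, Btla and Ly6i were between 143-fold and 287-fold higher. Retnla, a secreted resistin-like protein, had the largest of these ratios, 493-fold (360.2 to 692), but its UMIs sat in 12 members, and those of Lyz1 (157-fold) in 11. Ly6i, Lyz1 and Gpr141 have close relatives in the genome (Ly6c2, Lyz2, Gpr141b), and reads could have been split between them.

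Genes of the resident macrophage were among the lowest. Slc40a1 was 81.2-fold (59.4 to 114) higher in Kupffer cells, the terminal complement component C6 178-fold (81.6 to 484) and the lipid carrier Apoc1 45.04-fold (35.5 to 58.1). Fpr1, a receptor for bacterial formyl peptides, had 0 UMIs in members and 1506 in Kupffer cells, at least 42.9-fold higher there with members set to 3 counts. Pcolce2, Epb41l3, Paqr9, Tmem26, Slc16a9, Kcna2, Cd300e, Kcnj10, Acot1 and Bach2os had 1 or 2 UMIs in the members. Their ratios ran from 42.99-fold (7.68 to 1701) for Bach2os to 243-fold (43.5 to 9586) for Pcolce2 in favour of Kupffer cells, and Hilpda, with 7 UMIs in members, was 42.5-fold (20.6 to 106) higher there. Of 25 Kupffer cell genes outside the rule, 24 were at least 2-fold lower in members, 0 higher, with a median log2 ratio of -3.70. Of 13 iron genes tested, 7 were lower and 0 higher (median -1.41), with Hmox1, the heme oxygenase, 11.5-fold (9.81 to 13.5) higher in Kupffer cells. Of 17 clearance receptors, 10 were lower, among them Mertk and Msr1, and 3 higher (median -1.39).

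Of 19 monocyte genes tested, 12 were higher in members and 2 lower (median 1.29), led by S100a4, Ly6c2, Thbs1 and S100a6. Ly6c2, the Ly6C antigen, was 37.2-fold (21.2 to 68.4) higher. Of 12 genes of patrolling monocytes, 3 were higher and 8 lower (median -1.97): Cx3cr1 was 25.4-fold (17.4 to 37.7) higher in members, while Cd300e, Adgre4 and Cd300ld were higher in Kupffer cells. Of 16 type 1 dendritic cell genes, 10 were higher and 1 lower (median 1.65), and of 13 type 2 genes, 8 higher and 3 lower (median 1.75). Of 13 genes of mature dendritic cells, 8 were higher and 0 lower (median 2.03). Of 19 tissue macrophage genes outside Kupffer cells, 11 were higher and 5 lower (median 2.41). Without the 35 C1q-rich members the log2 ratio of Ccl8 to Kupffer cells, 5.26 with them, was -0.19. Among chemoattractant receptors 7 of 16 were higher and 5 lower (median 0.52), and Ccr1 was 124-fold (62.4 to 278) higher. Among pattern recognition receptors 5 of 25 were higher and 12 lower (median -0.98), and among cytokines 6 of 22 and 8 of 22 (median -0.48). Interferon-induced genes gave 4 higher and 8 lower of 23 (median -0.33), integrins and adhesion 7 and 8 of 20 (median -0.22), Fc receptors and complement 3 and 10 of 19 (median -1.07), lysosome and lipid handling 4 and 13 of 25 (median -1.003), and growth factor and cytokine receptors 1 and 7 of 23 (median -0.64).

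Secreted factors and their receptors differed by name. Osm, oncostatin M, was 63.01-fold (34.6 to 124) higher in members, and Tnfsf9 14.5-fold (11.6 to 18.3). Il18bp, which binds and blocks interleukin 18, was 41.6-fold (27.2 to 67.2) higher in Kupffer cells, Il10 26.2-fold (13.8 to 57.3) and Il6 18.04-fold (12.8 to 26.4). Csf1r, the receptor on which macrophages depend, was 4.10-fold (3.73 to 4.51) higher in Kupffer cells. Among Fc receptors, the inhibitory Fcgr2b stood at 285 CPM (253 to 319.7) in members against 29.2 CPM (26.2 to 32.5), and the activating Fcgr4 at 68.8 CPM (53.6 to 86.9) against 513 CPM (501 to 526). Properdin, encoded by Cfp, was 4.81-fold (4.21 to 5.52) higher in Kupffer cells. Clec4e, a sensor of damaged cells and mycobacteria, was 7.90-fold (5.49 to 11.3) higher in members, and so was Emb, an adhesion molecule, at 50.4-fold (31.7 to 83.1). Irf7 and Mx1, of the interferon-induced list, were 5.27-fold (4.16 to 6.77) and 3.96-fold (2.35 to 6.43) higher in Kupffer cells.

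Of 30 lineage transcription factors tested, 8 were higher in members and 9 lower (median -0.20). Runx3, Bcl11a, Zbtb46, Nfil3, Irf4, Cebpd, Relb and Batf3 were the higher ones. Spic and Nr1h3, regulators of Kupffer cell identity, were 21.3-fold (11.6 to 44.4) and 17.2-fold (12.6 to 24.3) higher in Kupffer cells, and Id3, Id1, Maf, Klf2, Tfec and Rxra were among the other lower ones. Zbtb46 stood at 39.3 CPM (28.1 to 53.5) in members and 3.95 CPM (2.90 to 5.25) in Kupffer cells, and sinusoidal endothelial cells held more, 151 CPM (145 to 157). Early response and heat shock genes gave 1 higher and 4 lower of 20 (median -0.53), with Dusp1 3.16-fold (3.01 to 3.32) higher in Kupffer cells.

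**Figure D2:**
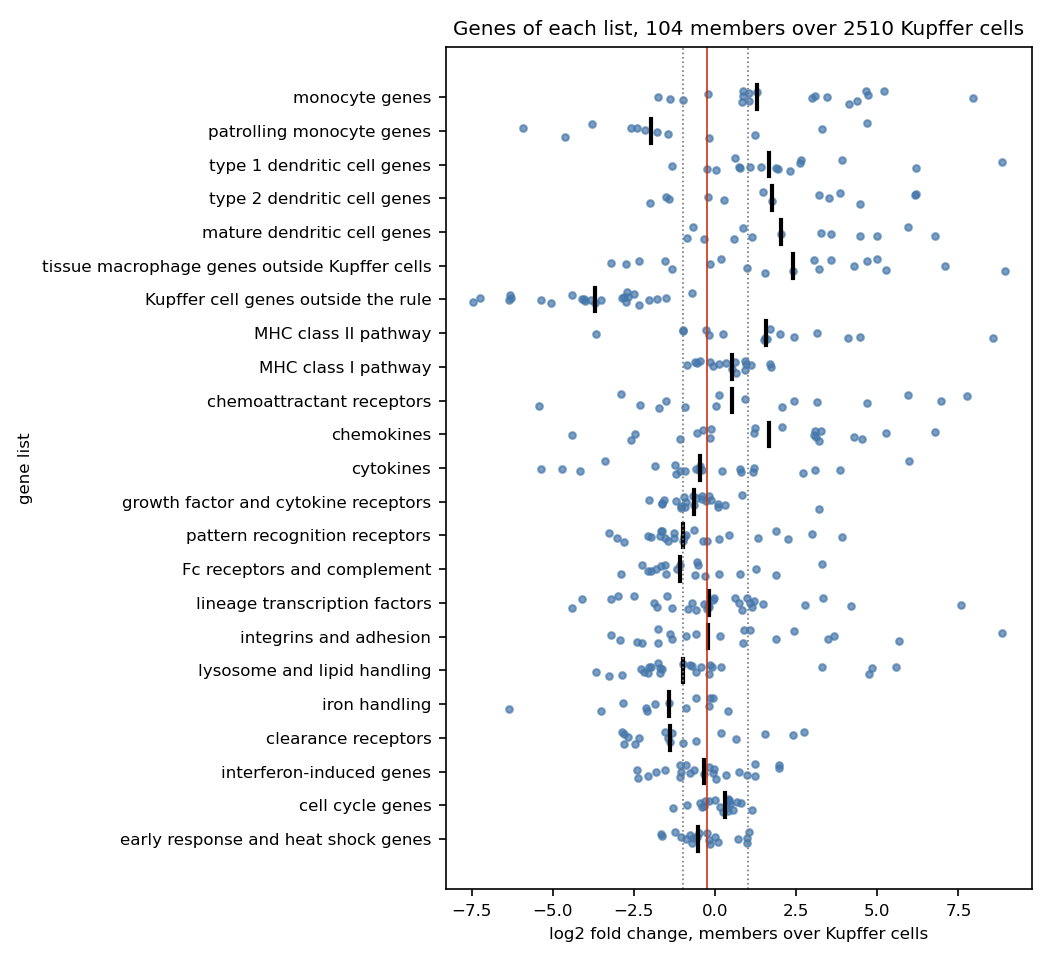
Log2 ratio of members over Kupffer cells (x axis) for the tested genes of each list (y axis), 1 point per gene, with the list median as a black bar, the median of all 10193 genes tested as a red line and 2-fold as dotted lines. Kupffer cell genes outside the rule sit to the left, with a median of -3.70, and tissue macrophage genes (median 2.41) and mature dendritic cell genes (median 2.03) to the right.

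Markers of other cells were read beside these values. The 10 sinusoidal endothelial markers were higher than in Kupffer cells for 9 genes and lower for 1, at 163 CPM for Fabp4 against 16.8 CPM. They summed to 1128.9 CPM in members and 343.2 CPM in Kupffer cells, with none of the 10 genes at 0. The median member held 100.7 CPM and the highest 26770.3 CPM, and 6 members held over 0.5%: 2 each of the Xcr1/Clec9a-led and Cd209a/Mgl2-led ranges and 1 each of the Chil3/F13a1-led range and the rest. Without these 6, Gpr182 and Oit3 were lower in members than in Kupffer cells (log2 -1.67 and -0.84). Of 236 named values over all comparisons, 5 fell under 2-fold without them. T and NK cell markers summed to 135.6 CPM, with Trac and Klrb1c at 0, against 17.1 CPM in Kupffer cells. The 7 neutrophil markers summed to 90.4 CPM, with S100a9 and Ly6g at 0, against 60.5 CPM. Ighm, an immunoglobulin chain of B cells, stood at 99.2 CPM (80.8 to 121) in members and 10.1 CPM (8.35 to 12.05) in Kupffer cells. Hepatocyte markers summed to 1066.0 CPM in members and 1434.5 CPM in Kupffer cells. Plasmacytoid dendritic cell markers summed to 394.0 CPM, with Klk1 at 0, against 391.6 CPM, and mesenchymal markers to 135.6 CPM, with Lrat, Reln and Col1a1 at 0, against 110.2 CPM. Apart from the removal of those 6 members, the part of these other cells in the results was not tested.

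Genes for antigen presentation on MHC class II were abundant in members. This pathway loads peptides onto the H2-A and H2-E molecules in the endosome, with Cd74 as the chaperone, H2-DM as the peptide editor, H2-O as the inhibitor of H2-DM and Ciita as the transcriptional activator. Of its 16 genes, 10 were at least 2-fold higher in members and 2 lower, with a median log2 ratio of 1.56. Cd74 stood at 18747 CPM (18482 to 19015) against 5753 CPM (5710.3 to 5797) in Kupffer cells, and H2-Aa at 8020.4 CPM (7847 to 8196) against 2673 CPM (2644 to 2703). The 2 H2-O chains and the second H2-DM beta chain differed more than the presenting chains: H2-Oa was 374-fold (157 to 1169) higher, H2-DMb2 22.3-fold (16.2 to 30.9) and H2-Ob 16.98-fold (12.4 to 23.3). The protease gene Ctss stood at 1164 CPM in members and 2333 CPM in Kupffer cells, and the protease gene Lgmn stood at 308 CPM in members and 3874 CPM in Kupffer cells. On the MHC class I side, 3 of 17 genes were higher and 0 lower (median 0.53), namely the immunoproteasome subunits Psmb8 at 3.33-fold (3.05 to 3.63) and Psmb9 at 2.14-fold (1.91 to 2.40), and H2-Q7 at 3.26-fold (2.78 to 3.80).

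Within the members, H2-O was low in the C1q-rich range, where the presenting chain H2-Aa was not. H2-Aa was 7898 CPM (7591 to 8215) in Xcr1/Clec9a-led, 10958 CPM (10526 to 11404) in Cd209a/Mgl2-led and 8755 CPM (8417 to 9103) in C1q-rich members. It was 5026 CPM (4604 to 5477) in members with no leading pair and 2320.1 CPM (2016 to 2658) in Chil3/F13a1-led members, where 6 of 13 cells had UMIs and 40.9% of them came from 1 cell. H2-Oa was 251 CPM (199 to 313) in Xcr1/Clec9a-led and 339.9 CPM (267 to 426) in Cd209a/Mgl2-led members, with UMIs in 18 of 23 and 14 of 20 cells. In contrast, it had 1 UMI in the 35 C1q-rich members, 3.46 CPM (0.0877 to 19.3), and 0 in the Chil3/F13a1-led ones. H2-Ob was also low in C1q-rich members, at 225, 122 and 3.46 CPM in the Xcr1/Clec9a-led, Cd209a/Mgl2-led and C1q-rich ranges. H2-DMb2 stood in these 3 ranges at 152, 272 and 6.93 CPM, and Ciita at 343, 317 and 96.97 CPM. Summed over all 35 cells, C1q-rich members thus held H2-Aa between the Xcr1/Clec9a-led and Cd209a/Mgl2-led levels, with little H2-O and less Ciita. That sum joined unlike cells: divided by Lyve1 and Folr2 as described below, H2-Aa was 11080 CPM in 23 of them and 4289 CPM in 12. B cells, in which H2-O is also known, had 115 CPM (55.1 to 211) of H2-Oa, and T cells, which should lack it, 2.997 CPM (0.363 to 10.8). Plasmacytoid dendritic cells also had H2-Oa, in 62.5% of 32 cells (thinned 17.1%), so it was not limited to the Xcr1/Clec9a-led and Cd209a/Mgl2-led ranges. H2-Ob was seen in 9.375% of plasmacytoid dendritic cells (thinned 1.33%).

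**Figure D3:**
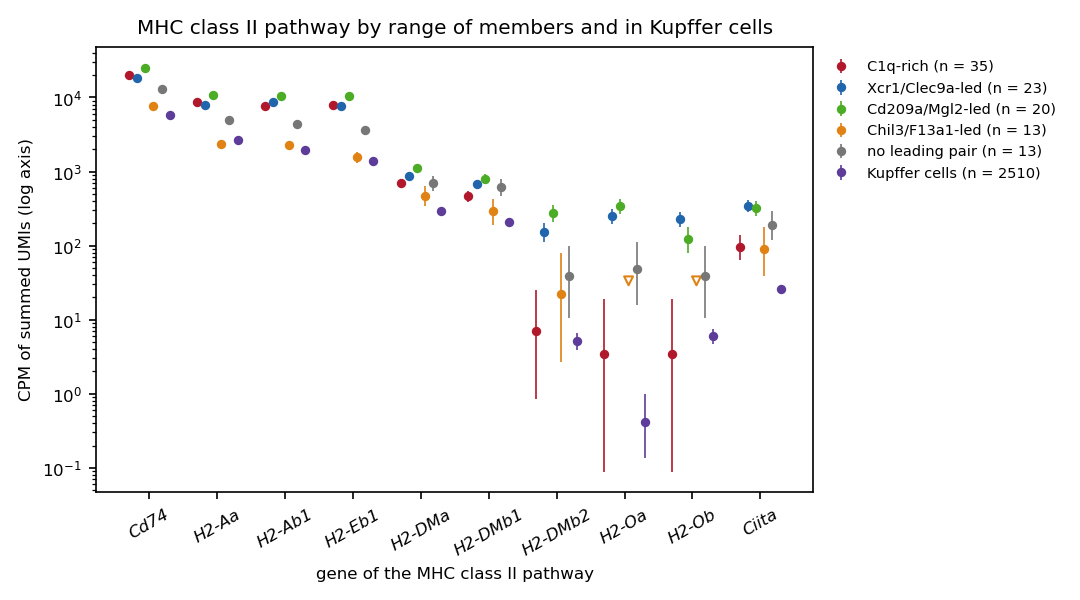
CPM of 10 genes of the MHC class II pathway (x axis) on a log axis, in 5 ranges of members and in Kupffer cells. Points are levels of summed UMIs, bars exact Poisson intervals, and open triangles mark the level of 3 counts for genes with 0 UMIs. H2-Aa lies at 7898, 10958 and 8755 CPM in the Xcr1/Clec9a-led, Cd209a/Mgl2-led and C1q-rich ranges, whereas H2-Oa, H2-Ob and H2-DMb2 of the C1q-rich range lie far below those of the other 2.

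Since H2-Aa and H2-Oa went apart among C1q-rich members, the promoters of class II genes of both kinds are shown. All 4 lie on chr17 (RefSeq, GRCm38.p6) and run from 250 bases before the gene start to 50 after, with capitals for GCAAC (part of the X box, which RFX binds) followed by TGATTGG (the Y box, an inverted CCAAT element bound by NF-Y). The motifs were chosen after the sequences had been read.
H2-Aa, chr17:34287774-34288073, minus strand: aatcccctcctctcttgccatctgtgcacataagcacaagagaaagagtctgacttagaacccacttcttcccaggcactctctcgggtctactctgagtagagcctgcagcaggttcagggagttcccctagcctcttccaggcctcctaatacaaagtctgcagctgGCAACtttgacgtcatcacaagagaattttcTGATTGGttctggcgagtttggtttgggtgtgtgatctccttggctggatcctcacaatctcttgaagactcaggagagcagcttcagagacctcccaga
H2-Eb1, chr17:34305617-34305916, plus strand: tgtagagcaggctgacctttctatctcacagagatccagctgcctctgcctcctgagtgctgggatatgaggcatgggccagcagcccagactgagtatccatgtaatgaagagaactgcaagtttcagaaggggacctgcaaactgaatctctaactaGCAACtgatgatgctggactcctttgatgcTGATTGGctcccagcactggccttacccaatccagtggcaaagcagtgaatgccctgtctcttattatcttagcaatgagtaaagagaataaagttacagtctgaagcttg
H2-Oa, chr17:34092129-34092428, plus strand: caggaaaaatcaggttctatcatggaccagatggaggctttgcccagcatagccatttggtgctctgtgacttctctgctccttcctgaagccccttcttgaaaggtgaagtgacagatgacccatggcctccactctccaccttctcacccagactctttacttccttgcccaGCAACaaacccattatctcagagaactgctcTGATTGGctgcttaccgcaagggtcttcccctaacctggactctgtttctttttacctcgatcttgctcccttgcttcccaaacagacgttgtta
H2-Ob, chr17:34238655-34238954, plus strand: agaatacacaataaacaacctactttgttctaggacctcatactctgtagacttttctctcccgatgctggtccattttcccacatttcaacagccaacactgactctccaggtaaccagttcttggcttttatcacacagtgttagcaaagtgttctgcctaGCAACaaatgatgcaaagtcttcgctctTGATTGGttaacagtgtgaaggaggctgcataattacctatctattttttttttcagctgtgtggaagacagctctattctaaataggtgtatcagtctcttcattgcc
All 4 promoters held both motifs in this order, 26, 25, 26 and 23 bases apart, with the Y box beginning 50, 61, 45 and 59 bases before the gene start. Counted on either strand, this order with a gap of 10 to 40 bases occurred in 95 of 32851 promoters of the same length (0.289%). TGATTGG occurred on either strand in 7.82% and GCAAC in 35.2%. The other strand of these 4 held neither motif. H2-DMb1 and H2-DMb2 held TGATTGG, 63 and 92 bases before the start, without GCAAC. Of the 16 class II list genes, 11 had a promoter in the table. Both motifs were thus present in promoters of genes whose levels went together and of genes whose levels went apart among the members.

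Per cell, the summed share of H2-Aa, H2-Ab1, H2-Eb1 and Cd74 varied widely inside every range. Its lowest, median and highest values were 0.358%, 6.08% and 8.96% of UMIs in Cd209a/Mgl2-led members and 0.0216%, 4.63% and 6.15% in Xcr1/Clec9a-led members. They were 0%, 4.86% and 9.05% in C1q-rich members, 0%, 0.299% and 4.98% in Chil3/F13a1-led members and 0.0178%, 2.45% and 5.18% in the rest. Without members over 0.5% sinusoidal markers, the lowest values were 3.02% in Cd209a/Mgl2-led and 0.747% in Xcr1/Clec9a-led members. The ranges overlapped throughout, and the Chil3/F13a1-led median lay below the Kupffer cell median of 0.952%. The highest Kupffer cell reached 5.71%, and the highest of 168 T cells 0.0731%.

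**Figure D4:**
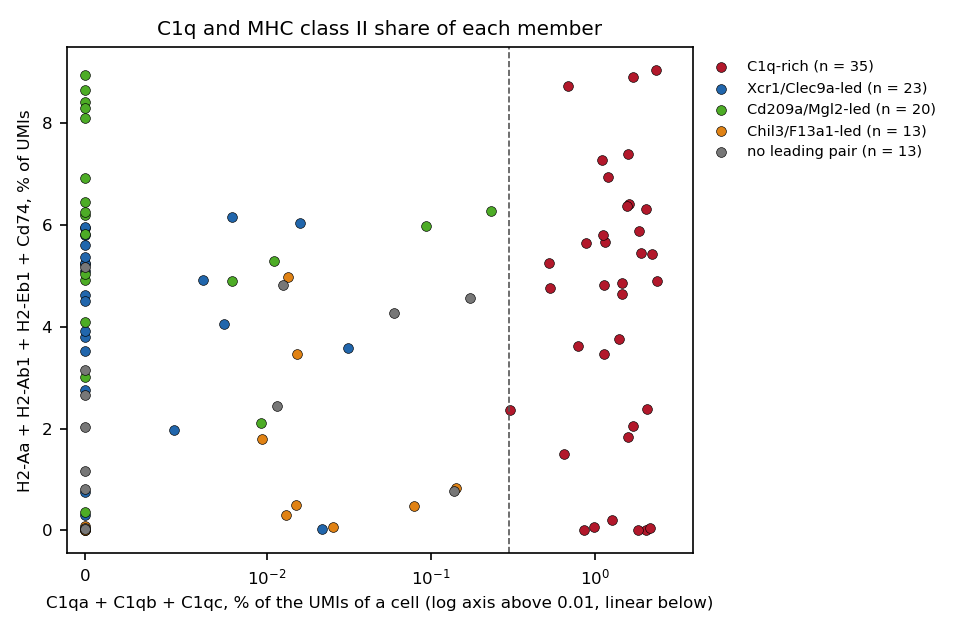
Each point is 1 of the 104 members, coloured by range, with the C1q share (x axis, log above 0.01% and linear below) and the summed share of H2-Aa, H2-Ab1, H2-Eb1 and Cd74 (y axis). The dashed line marks 0.3% C1q. C1q-rich members spread from 0% to 9.05% on the y axis, with a group near 0, and 44 members lie at a C1q share of 0.

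Xcr1/Clec9a-led members carried most of the type 1 dendritic cell genes. Of 4454 genes with at least 30 UMIs, 272 (6.11%) were at least 2-fold higher in these 23 cells than in the other members and 832 (18.7%) lower, with a median log2 ratio of -0.19. The ranges were drawn from the same cells, so counts between them are a description too. Of 17 type 1 genes tested, 15 were higher and 0 lower (median 2.82). Irf8, the factor these cells depend on, stood at 1680.0 CPM (1539.9 to 1829) against 239 CPM (186 to 302) in C1q-rich and 31.7 CPM (12.8 to 65.4) in Cd209a/Mgl2-led members, and plasmacytoid dendritic cells had more, 4207 CPM (3938 to 4490.1). Cst3, the protease inhibitor cystatin C, reached 20738 CPM (20238 to 21247) in them, against 6213 CPM (5889 to 6551) in Cd209a/Mgl2-led members and 1486 CPM (1464 to 1508) in Kupffer cells. Wdfy4, which cross-presentation of cell-associated antigen needs, stood at 651 CPM (565 to 747), Naaa, a lipid amidase, at 838 CPM (740.3 to 946), and Ppt1, a lysosomal thioesterase, at 1162 CPM (1046 to 1288).

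Genes seen in these cells alone or nearly so among members included the integrin Itgae, which is CD103. Itgae (chr11:73090583-73147446, plus strand) had 79 UMIs in 17 of 23 cells, 251 CPM (199 to 313), and 0 in the other 81 members, at least 58.8-fold higher with those set to 3 counts. Its share of cells was 73.9% (51.6 to 89.8) (thinned 22.8%, median depth 13117), against 0.0680% of sinusoidal endothelial cells (thinned 0.0153%). Gcsam had 40 UMIs in 13 cells and 0 in other members, at least 29.8-fold higher. Il12b, a subunit of interleukin 12, had 40 UMIs in 7 cells, 47.5% of them in 1, and 0 in other members, at least 29.8-fold higher, while 16 of 2510 Kupffer cells also had it (4.62 CPM). Gpr141b was 87.1-fold (14.7 to 3526) higher, Gpr171 33.5-fold (17.7 to 71.3), Cystm1 31.3-fold (7.88 to 271), Plekha5 24.6-fold (7.70 to 125) and the transcription factor Mycl 16.97-fold (6.67 to 55.2). Cd24a was 16.8-fold (8.94 to 35.04) higher and Tlr3, the sensor of double-stranded RNA, 13.6-fold (7.13 to 28.5), but Tlr3 also stood at 36.6 CPM in sinusoidal endothelium.

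On the lower side, these members were poor in macrophage and inflammatory genes. Retnla had 0 UMIs, at least 251-fold lower with them set to 3 counts, and Cxcl2, a neutrophil chemoattractant, had 1, 335-fold (59.96 to 13253) lower. C1qa, C1qb and C1qc, which set the C1q range, had 5, 1 and 2 UMIs. Of 18 monocyte genes 15 were lower and 0 higher (median -3.11), of 17 tissue macrophage genes 17 were lower (median -3.96), and of 19 chemokines 16 were lower and 1 higher (median -4.15). The higher chemokine was Ccl5, whose 222 UMIs all came from 1 cell. Lysosome and lipid genes gave 20 lower and 0 higher of 25 (median -1.92), cell cycle genes 6 lower and 0 higher of 9 (median -2.26), and the class II pathway 3 higher and 2 lower of 15 (median 0.24). The sinusoidal markers were within 2-fold for 10 of 10 genes, 1178.2 CPM in sum, to which 2 cells over 0.5% contributed. The median cell of this range held 80.8 CPM of them and the highest 26770.3 CPM.

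Cd209a/Mgl2-led members showed part of the type 2 list and, in sum but not in the median cell, more cell cycle RNA. In these 20 cells 189 of 4454 genes (4.24%) were at least 2-fold higher than in the other members and 561 (12.6%) lower, with a median log2 ratio of -0.09. Of 9 type 2 genes tested, 5 were higher and 1 lower (median 1.14). Tnfsf9, the ligand 4-1BBL that costimulates T cells, stood at 698 CPM (592 to 817) in 14 of 20 cells, 26.5-fold (16.7 to 44.02) higher. The lectin Clec10a was 6.12-fold (4.43 to 8.51) higher, Tnip3 stood at 725 CPM (617 to 847), and Irf4, a factor of type 2 cells, at 72.5 CPM (41.4 to 118) in 8 cells. Clec10a was seen in 14 of 20 cells here (thinned 29.1%) and in 20 of 35 C1q-rich members (thinned 15.8%). It was also seen in 28 of 32 plasmacytoid dendritic cells (thinned 26.4%). Klrd1, a lectin better known from NK cells, was 9.29-fold (5.52 to 16.2) higher with UMIs in 12 cells, and plasmacytoid dendritic cells had it at 259 CPM (196 to 337). The T and NK cell markers, Klrd1 among them, summed to 267.4 CPM in this range with 8 of 10 at 0, Trac, Nkg7 and Ncr1 included. Clec4b1 (6.08-fold), Mcemp1 (7.61-fold) and Ltb4r1 (9.03-fold) were also higher. Clec10a and Mgl2 are close relatives that lie side by side on chr11, so reads of the pair could have been split. Timp3 was 6.11-fold higher with 86.4% of its UMIs in 1 cell, and its log2 ratio was -0.16 without the deepest cell of each side. Sinusoidal markers were higher for 5 of 10 genes here and summed to 2039.4 CPM, which 2 cells over 0.5% contributed to.

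Of 9 cell cycle genes, 8 were higher in Cd209a/Mgl2-led members and 0 lower (median 1.52). Birc5 was 12.9-fold (5.42 to 35.3) higher, Pclaf 12.2-fold (6.07 to 26.4) and Stmn1 7.22-fold (4.95 to 10.7), in 3, 4 and 6 cells. The whole cell cycle list summed to 2134.5 CPM in this range, but its median cell held 246.1 CPM and its highest 9643.8 CPM. Median cells of the other ranges held 197.2 to 339.8 CPM, and the median Kupffer cell 334.4 CPM. Mki67 or Top2a was seen in 8 of 20 cells, 40% (19.1 to 63.9), against 26.1% (10.2 to 48.4) of Xcr1/Clec9a-led, 17.1% (6.56 to 33.6) of C1q-rich and 7.69% (0.195 to 36.0) of Chil3/F13a1-led members, and 9.88% (8.74 to 11.1) of Kupffer cells. These intervals overlapped among the ranges. Thinned to 1000 UMIs, Mki67 alone was seen in 9.41% of Cd209a/Mgl2-led members, 6.60% of C1q-rich members, 1.90% of the deeper Xcr1/Clec9a-led members and 2.38% of Kupffer cells. On the lower side of this range, with 1 or 2 UMIs each, Pf4 was 196-fold (35.1 to 7752) lower, C1qc 148-fold (40.7 to 1219.9), Lyve1 58.96-fold (10.5 to 2339.7) and Cd63 50.9-fold (9.03 to 2023). C1qc is part of the C1q limit that these cells had to stay under, so its ratio was set by the choice of cells. The eotaxin Ccl24 had 0 UMIs, at least 47.4-fold lower with these cells set to 3 counts. Of 17 tissue macrophage genes 15 were lower and 0 higher (median -2.50), and of 17 interferon-induced genes 13 were lower and 0 higher (median -1.95). Il1b, an inflammatory cytokine, stood at 4609 CPM (4330.0 to 4901) here, above the 3197 CPM (3165 to 3229.5) of Kupffer cells.

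Chil3/F13a1-led members showed the monocyte genes together. In these 13 cells 533 of 4454 genes (12%) were at least 2-fold higher than in the other members and 638 (14.3%) lower, with a median log2 ratio of 0.05. Of 18 monocyte genes tested, 17 were higher and 0 lower (median 1.88). Lyz2 stood at 17669 CPM (16809 to 18561), Plac8 at 2008 CPM (1725 to 2324), S100a4 at 1829 CPM (1560.1 to 2132), Ccr2 at 692 CPM (530.2 to 887) and Ly6c2 at 279 CPM (180.5 to 412) in 8 of 13 cells. Ly6c2 also stood at 2053 CPM (1866 to 2253) in plasmacytoid dendritic cells and at 0 CPM (0 to 12.8) in C1q-rich members. The monocyte list summed to 35415.5 CPM here, 19296.5 CPM in members with no leading pair, 14750.3 CPM in C1q-rich members and 6454.6 CPM in Kupffer cells. Of 9 patrolling monocyte genes, 3 were higher and 0 lower (median 0.58), but Cx3cr1 was lower here, 100.4 CPM (45.9 to 191), than in C1q-rich members, 242 CPM (189 to 306). Ace, another gene of the patrolling list, had 4 UMIs in 2 cells. Of 15 class II genes, 10 were lower and 1 higher (median -1.38), and the neutrophil markers S100a8, S100a9 and Ly6g were at 0.

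Several of the largest ratios in this range rested on 1 or 2 cells. Spp1, the secreted protein osteopontin, was 388-fold (104 to 3265) higher, with 82.7% of its 75 UMIs in 1 cell. Gpnmb, a glycoprotein of lipid-laden macrophages, was 60.4-fold (25.1 to 176) higher with 35 UMIs in 2 cells. A different cell, of 15435 UMIs and 4 UMIs of the 9 rule genes, held 74.3% of the Gpnmb UMIs, 73.0% of those of the fatty acid carrier Fabp5, 68.9% of the lipase Lpl and 69.2% of Trem2, with 2 UMIs of Ccr2 and 0 of Ly6c2. Without that cell Fabp5 stood at 592.9 CPM, Lpl at 444.7 CPM and Gpnmb at 121.3 CPM in the 12 others. Fn1, fibronectin, was 17.3-fold (12.5 to 23.97) higher with UMIs in 11 of 13 cells, though 69.5% sat in 1. Fas (14.3-fold), Gsr (12.7-fold), F10 (12.6-fold) and the cathepsin Ctsd (10.1-fold) were also higher, and Pf4 (0 UMIs), Jaml and Avpi1 (1 UMI each) lower. Retnla, at 3525 CPM, came from 1 cell alone, and Lyz1 likewise.

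C1q-rich members held more of the genes of tissue macrophages and of Kupffer cells than the other members did. Among 4451 genes, 472 (10.6%) were at least 2-fold higher in these 35 cells and 534 (12%) lower, with a median log2 ratio of -0.04. Of 17 tissue macrophage genes tested, 15 were higher and 0 lower (median 5.19), and of 18 Kupffer cell genes outside the rule, 14 were higher and 1 lower (median 2.24). Pf4, the chemokine platelet factor 4, stood at 2449 CPM (2271 to 2636) with UMIs in 26 of 35 cells and had 2 UMIs in the other 69 members, 893-fold (246 to 7385) higher. Kupffer cells held 75.2 CPM (70.4 to 80.3). The chemokines Ccl8 (183 UMIs in 12 cells) and Ccl12 (119 UMIs in 10 cells) and the carbonyl reductase Cbr2 (98 UMIs in 16 cells) had 0 UMIs in the other members, and were at least 154-fold, at least 100.2-fold and at least 82.5-fold higher with those set to 3 counts. Ccl8 (chr11:82115185-82116799), Ccl12 (chr11:82101845-82103400) and Ccl7 (chr11:82045712-82047525) are related genes in 1 cluster, all on the plus strand, and reads may be shared among them. Folr2, a folate receptor that Kupffer cells also hold, was at least 123-fold higher on the same scale, Lyve1, a hyaluronan receptor, 65.02-fold (32.4 to 153), and Ms4a7 52.01-fold (21.6 to 164). Ednrb, Mmp9 and Fxyd2 completed the 10 highest genes.

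**Figure D5:**
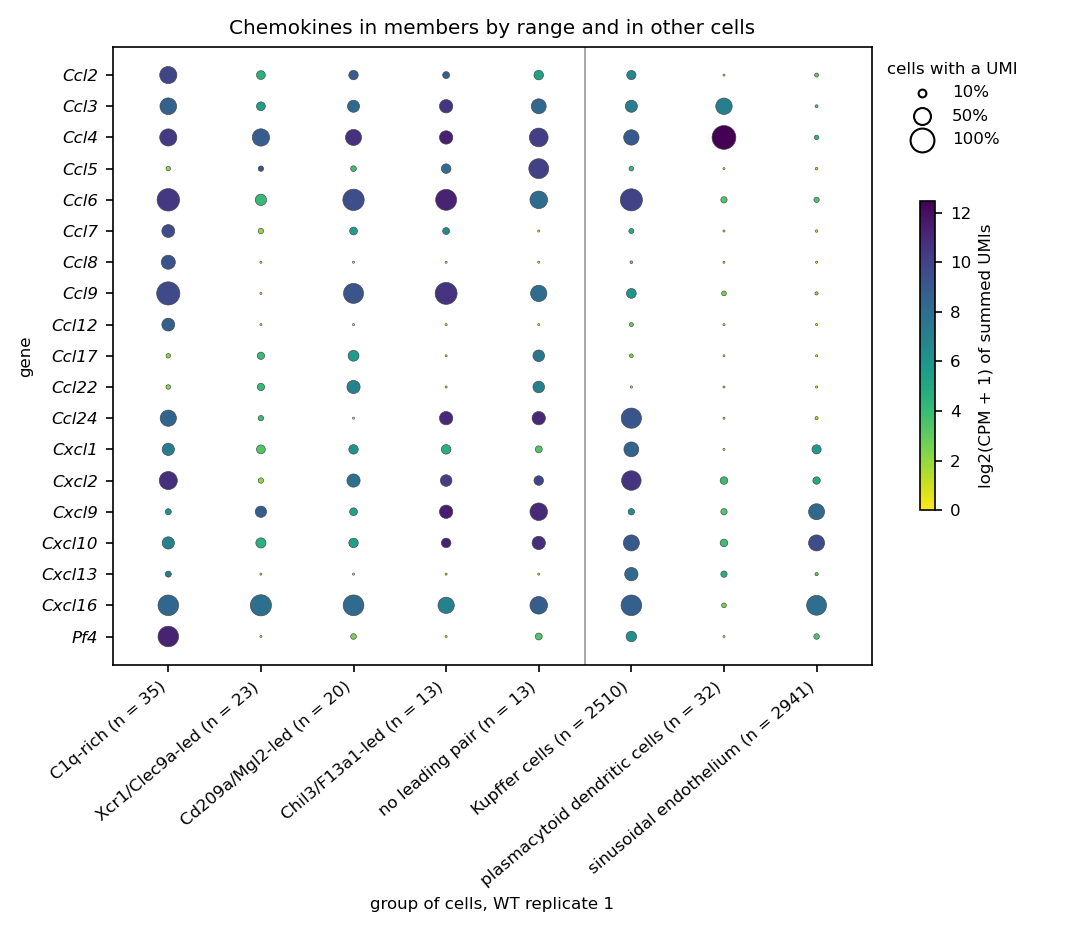
Chemokine genes (rows) in 5 ranges of members and in 3 other groups of cells of WT replicate 1 (columns), with colour for log2(CPM + 1) of summed UMIs and dot area for the share of cells with a UMI. Ccl8, Ccl12 and Pf4 stand in the C1q-rich column, Ccl9 in all ranges of members except the Xcr1/Clec9a-led one, where it had 0 UMIs, and Ccl5 and Cxcl9 most widely in the members with no leading pair.

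Several chemokines were higher in the C1q-rich range than in Kupffer cells. Ccl8 stood at 634 CPM (545 to 733) against 4.70 CPM (3.55 to 6.11) in Kupffer cells, Ccl7 at 776 CPM (678 to 884) against 27.5 CPM (24.6 to 30.6), Ccl2, the ligand of Ccr2, at 949 CPM (839.9 to 1068) against 98.3 CPM (92.8 to 104), and Ccl9 at 797 CPM (697 to 906) against 59.95 CPM (55.6 to 64.5). Ccl8 was seen in 12 of 35 cells, and the cells that held most of the Ccl8 and Ccl7 UMIs are given below. Ccl9 was seen in 33 of 35 cells but was higher in Chil3/F13a1-led members, at 1528 CPM (1283 to 1807). The 21 chemokines summed to 12032 CPM in C1q-rich, 17256 CPM in Chil3/F13a1-led and 10958 CPM in members with no leading pair, 1988 and 4577 CPM in the Xcr1/Clec9a-led and Cd209a/Mgl2-led ranges and 5752 CPM in Kupffer cells. Among chemokines 10 of 19 were higher than in other members and 5 lower (median 1.002), and over all members against Kupffer cells 12 of 20 were higher and 4 lower (median 1.66). Fc receptors and complement gave 11 higher and 1 lower of 14 (median 1.92), clearance receptors 9 and 1 of 14 (median 1.66), and iron genes 6 and 0 of 8 (median 1.14). Of 17 type 1 dendritic cell genes 15 were lower and 0 higher (median -2.26). Plac8 was 47.9-fold (21.9 to 131) lower, Gpr171, H2-Oa, Ccl5 and Ehd3 were lower still, and the sinusoidal markers were lower for 10 of 10 genes. Dcn, a mesenchymal proteoglycan, stood at 301 CPM with 90.8% of its UMIs in 1 cell.

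The C1q-rich members also differed among themselves. A division by Lyve1 and Folr2, chosen after the values had been seen, put 12 cells at 2 or more summed UMIs and 23 below, with 4 of the 23 at exactly 1. Depth was alike, with medians of 7689.5 and 8113 UMIs. The rule genes F13a1 and Ccr2 are given for description only, since each cell had to reach 4 UMIs of the 9 genes and a cell low in one had to hold another. The 12 cells held F13a1 at 2408 CPM (2112 to 2734) against 158 CPM (107 to 226) in the 23, Cbr2 at 890.3 CPM (714 to 1097) against 52.7 CPM (25.3 to 96.8), the haemoglobin scavenger receptor Cd163 at 931 CPM (750.3 to 1141) against 158 CPM (107 to 226) and Cd209f at 486 CPM (358 to 644) against 5.27 CPM (0.133 to 29.3). Pf4 stood at 4492 CPM (4084 to 4929.7) against 1385 CPM (1223 to 1563) and Gas6, a bridging molecule for dying cells, at 567 CPM (428 to 736) against 68.5 CPM (36.5 to 117). Retnla, at 11624 CPM (10962 to 12316) against 248 CPM (182 to 329), was seen in 6 of 12 and 2 of 23 cells. Ccl7 was seen in 3 of 12 and 7 of 23 cells, with 89.1% and 46.1% of the UMIs of each side in 1 cell. Ccl8 was seen in 7 of 12 and 5 of 23 cells, with 57.6% and 41.4% in 1 cell.

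In the 23 cells, H2-Aa, Cd74 and Il1b were higher. H2-Aa stood at 11080.0 CPM (10612 to 11564) in the 23 and 4289 CPM (3891 to 4718) in the 12, and was seen in 23 of 23 and 6 of 12 cells. Cd74 stood at 24919 CPM (24214 to 25639.8) against 10127 CPM (9509 to 10774), Il1b at 3491 CPM (3231 to 3768) against 111 CPM (55.6 to 199) and Ccr2 at 495 CPM (400.0 to 606) against 60.7 CPM (22.3 to 132). Cx3cr1 was seen in 13 of 23 and 3 of 12 cells, and Mki67 in 5 and 0. Mgl2 did not follow the division, at 637 CPM (489.8 to 815) in the 12 and 511 CPM (414 to 623) in the 23, and neither did Apoe, at 17046 and 17805 CPM. Both were low in Clec4f, at 40.5 CPM (11.03 to 104) and 105 CPM (64.3 to 163), a rule gene, where the Kupffer cells had 4741 CPM (4702 to 4781). Timd4, also a rule gene, had 15 UMIs in 7 of the 12 cells and 13 UMIs in 1 of the 23.

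The 13 members with no leading pair were mixed. Ccr2 was seen in 11 of them at 558 CPM (424 to 722), Plac8 stood at 2850.2 CPM (2535 to 3194), Lyz2 at 9138 CPM (8566 to 9738) and Ly6c2 at 241 CPM (156 to 355) in 5 cells. Cxcl9, the ligand of Cxcr3, stood at 2099 CPM (1829.7 to 2397) in 7 cells, Cxcl10 at 1819.9 CPM (1569.7 to 2099) in 4 and Ccl5 at 1059 CPM (871 to 1277) in 9. Ccl24 was 2157 CPM with 91.96% of its UMIs in 1 cell. The T and NK cell markers summed to 529.6 CPM here and reached 16736.4 CPM in the highest cell. All 20 Gzma UMIs sat in 1 cell, and their part in the levels above was not tested.

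Genes of dendritic cell maturation were seen in few members. Ccr7, the receptor that leads dendritic cells to lymph nodes, had 111 UMIs in 7 of 104 members: 3 Xcr1/Clec9a-led, 2 with no leading pair, 1 Cd209a/Mgl2-led and 1 C1q-rich. Fscn1, an actin-bundling protein of mature dendritic cells, was seen in 8 members and together with Ccr7 in 2, 1 Xcr1/Clec9a-led and 1 with no leading pair. Fscn1 is also made by sinusoidal endothelium here, at 112 CPM (107 to 117). The Ccr4 ligands Ccl17 and Ccl22 were seen together in 7 members, 4 of them Cd209a/Mgl2-led. Ccl22 stood at 122 CPM (80.6 to 178) in that range, 135 CPM (73.7 to 226) in members with no leading pair and 0.420 CPM (0.136 to 0.980) in Kupffer cells.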

How the data were processed

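Single-cell RNA of 2 WT liver samples was measured, and WT replicate 1 held all 104 members. The deposited table holds raw UMI counts per gene and cell for both samples together, as whole numbers that the authors did not normalize. Per the submitters' processing notes, Cell Ranger 2.1.1, Seurat 3.1 and the mouse build GRCm38 were used. What each step did is not given in the sources used here. The sample of a cell was read from the ending of its barcode.

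Counts were summed over the cells of a group and given as CPM. Levels, shares and ratios carry exact 95% intervals. A gene was tested with at least 50 UMIs over both sides (30 between ranges) and called at 2-fold. A side with 0 UMIs was set to 3 counts. Python 3.11.15, numpy 2.4.6, scipy 1.17.1, pandas 2.3.3, scanpy 1.11.5 (with its Scrublet) and matplotlib 3.10.9 were used, and the scripts were tested on simulated data.

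The genes named were the 15 highest and 15 lowest by ratio against Kupffer cells, up to 4 per list, and between ranges the 10 highest and 5 lowest, each with UMIs in at least 10% of the cells of the higher side, rule genes, mitochondrial and ribosomal genes and unnamed gene models left out. Genes on lists and by role were named beside them. Members and lists were chosen with earlier results of these data known. The division by Lyve1 and Folr2, the removal of single cells and the motifs were chosen after seeing the data. Alternatives changed the 9-gene minimum, the mitochondrial, Kupffer, C1q and doublet limits, the UMI minimum and the cells left out. Cells of WT replicate 2 entered no comparison.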

Additional observations from a re-analysis of the deposited data

Results flagged for a closer look

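WT replicate 2, which entered no comparison, held 18 UMIs of the 9 rule genes, above the 3 counts that a count of 0 allows. Clec9a, the dendritic cell lectin, gave 15 of them in 15 cells, 1.26 CPM, where a count of 0 allows 0.253 CPM. F13a1 gave the other 3, in 3 cells. None of its 2341 cells met the rule.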

How the results depend on the processing

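Of 3222 values recomputed under other settings, 2927 kept direction and size, 281 moved and 14 reversed. Without the highest 5% of Scrublet scores, 9 of 236 named values fell under 2-fold. The number of members was 127 with at least 3 UMIs of the 9 genes and 85 with at least 6. At 3 UMIs the Xcr1/Clec9a-led range held 35 cells instead of 23, and 481 genes were higher in it. The cells at exactly 3 UMIs held sinusoidal markers at 14074 CPM. With a minimum of 20 UMIs, 1552 genes were higher in members than in Kupffer cells and 324 in Cd209a/Mgl2-led members. With no minimum, more genes being tested, 4162 were higher in members. The counts were then 1495 higher and 1338 lower in C1q-rich, 942 and 2046 in Xcr1/Clec9a-led and 1325 and 1367 in Cd209a/Mgl2-led members, and 3862 higher in Chil3/F13a1-led ones. The number of genes tested under each of these settings is not given, so the counts cannot be read as shares. Log2 ratios to Kupffer cells reversed for Igkc (-1.75) and Spp1 (-2.08) at a minimum of 6 UMIs, and for Cenpf (-0.23) at a Kupffer share under 0.15%. They also reversed for Igkc (-0.93), Krt19 (0.83) and Krt7 (0.18) without the highest 5% of Scrublet scores, and for Ccl8 (-0.19), Cenpf (-0.76) and Mmp9 (-2.80) without the C1q-rich members. Without members over 0.5% sinusoidal markers, Gpr182 (-1.67), Oit3 (-0.84) and Igkc (-2.84) did so. Timp3, between Cd209a/Mgl2-led and other members, was -0.90 without the highest Scrublet scores and -0.16 without the deepest cell of each side. Why these values reversed was not tested. Ranges of 13 to 35 cells limit every level, and genes with few UMIs have wide intervals. No paired analysis was possible because the series has 1 group and all members come from 1 library.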
